A study of Drosophila melanogaster with 24 samples.

Results

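The 2 unselected control lines of an artificial selection experiment on alcohol sensitivity in *Drosophila melanogaster*, C1 and C2, were compared with each other, using the 8 of 24 arrays whose labels name a control line. Each control line had 2 arrays of males and 2 of females, and each array held RNA from the whole bodies of a pool of 15 virgin flies aged 3 to 5 days, collected at generation 25. All lines descended from 1 heterogeneous base population drawn from a natural population at Raleigh, with lines R1 and R2 selected for resistance, S1 and S2 for sensitivity, and C1 and C2 bred each generation from 20 flies taken at random. Lines that share a number were begun from the same replicate of the base population. Every group, the controls included, carries the label that its flies met ethanol vapor before RNA was taken, an exposure that the methods of the array experiment do not describe, so the control difference is not a difference between exposed and unexposed flies.

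Populations bred apart from limited numbers of parents diverge without selection, because allele frequencies change by chance when each generation is sampled from the last. Variants that regulate transcription drift with the rest of the genome, so replicate unselected lines come to differ in transcript abundance, and such lines are kept in selection experiments to measure this divergence. Drift, the flies each line was founded from and any difference in rearing cannot be told apart in a contrast of 1 line with 1 other line. The p-values below measure the spread between RNA pools, not between independently derived control lines. In whole flies, fewer cells of a type and less RNA per cell cannot be told apart either.

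Transcript abundance is given as the Signal of MAS5, a background-corrected brightness per probe set that the authors scaled to a common target on each array. Probe sets that reached a Signal of 50.44 on at least 12 of the 24 arrays were tested on log2 Signal with limma, and a probe set is said to be called, or a transcript higher in 1 line, where the Benjamini-Hochberg adjusted p was below 0.001. The median Signal of the 4 control male arrays was 142.2 to 144.2 and that of the 4 control female arrays 71.91 to 79.96. The ratio of 3' to 5' Signal of GAPDH, a measure of RNA integrity, was 1.85 and 1.86 in C1 females and 2.33 and 2.30 in C2 females. In males it overlapped, at 2.01 and 2.47 in C1 and 2.36 and 2.82 in C2. The ratios of *Act5C* and *eIF4a* were also higher in both C2 female pools. Whether RNA integrity had a part in the female differences was not tested. Sex labels matched yolk protein transcripts, since *Yp1* had a Signal of 19930 to 22640 in the 4 female pools and 13.97 to 48.14 in the 4 male pools. A set of 101 probe sets that exceeded 500 in every male and stayed under 10 in every female of the selected lines exceeded 50 in 0 of the 4 control female pools. Between the 2 pools of a control line and sex, the median absolute difference in log2 Signal was 0.14 to 0.22, and between C1 and C2 with the sexes averaged it was 0.17. These sizes are not directly comparable. The first sets 1 array against 1 array and the second a mean of 4 arrays against a mean of 4, which varies less. *fln*, a flight muscle protein, had a Signal of 4748 and 1230 in the C1 male pools, against 1613 and 1064 in C2 males. Its female pools were at 11380 and 12270 in C1 and 6211 and 3788 in C2. Of the 25 tested muscle genes 0 were called, where 1.94% of all genes were. In this list 19 genes had a C1 minus C2 difference below 0 and 6 above, with a median of -0.165 (0.017 in males and -0.246 in females).

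C1 and C2 differed at 229 probe sets, 1.93% of those tested. Of these, 111 (0.938%) were higher in C1 and 118 (0.997%) in C2. Taking 1 probe set for each gene, 193 of 9961 genes were called (1.94%), with 94 higher in C1 and 99 in C2. The size of a called difference had a median of 0.92 on the log2 scale and ranged from 0.30, which is 1.23-fold, to 5.88. Differences over 2-fold made up 97 of the 229, 56 of them higher in C1 and 41 higher in C2, and 63 of the 229 remained over 2-fold when 50 was added to every Signal before the logarithm, a scale that shrinks differences among dim probe sets. The arrays of C1 and C2 did not overlap in either sex, with the same direction in both, at 221 of the 229, where 2298 of all tested probe sets (19.4%) showed such a separation. The call itself favours probe sets whose arrays separate. Leaving out any 1 of the 8 control arrays lowered the count, to 115 without C1 female 1, 117 without C2 male 2, 119 without C1 female 2, 125 without C2 female 1, 129 without C2 male 1, 134 without C1 male 1, 165 without C1 male 2 and 168 without C2 female 2. With only the 8 control arrays in the fit, so that the spread is estimated from them alone, 40 probe sets were called.

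The transcript with the largest excess in C1 was *Lcp1*, which encodes a larval cuticle protein. Its Signal was 298 and 390 in C1 males and 183 and 244 in C1 females, against 9.03 and 4.78 in C2 males and 4.73 and 7.86 in C2 females. All 4 C1 pools lay far above all 4 C2 pools, a difference of 5.41 ± 0.45 in log2 Signal (SE; limma adjusted p = 1.16e-06), or 2.50 after adding 50. Line means of *Lcp1* were 278.8 in C1, 156.6 in S1, 96.27 in R2, 61.21 in S2, 19.91 in R1 and 6.60 in C2, so the control lines held both ends of the range.

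*Fst* (Frost), a gene induced by cold, had a Signal of 1983 and 1811 in C1 males and 808 and 1017 in C1 females, and 374 and 257 in C2 males and 155 and 182 in C2 females. Within each sex both C1 pools exceeded both C2 pools, and the lines differed 5.74-fold (2.52 ± 0.31, limma adjusted p = 5.65e-05). *CG13324* gave 1245 and 1313 in C1 males and 552 and 786 in C1 females, against 184 and 103 and 96.2 and 105 in C2, without overlap, 7.8-fold apart (limma adjusted p = 1.54e-07). For *CG3706* the 4 C1 pools stood at 226.5 to 258.6 and the 4 C2 pools at 45.97 to 70.37, with males and females of a line alike and limma adjusted p = 1.2e-06. *CG31809* ranged from 325.9 to 582.6 in C1 and from 94.97 to 126.4 in C2, 3.9-fold apart (limma adjusted p = 1.16e-06). *Ser8*, a serine protease, was at 1474 and 1668 in C1 males and 672 and 644 in C2 males, and at 475 and 618 in C1 females and 91.4 and 159 in C2 females. It was therefore higher in C1 within each sex, while C2 males and C1 females had similar levels (limma adjusted p = 2.66e-05). No other of 27 tested digestive proteases was called (3.7% of the list, where 1.94% of all genes were). The same direction without overlap held for *CG32827*, *CG4563*, *CG32379* and *CG31955*, whose line means in C1 were 65.05, 161.6, 150.8 and 137.6 and in C2 7.72, 42.94, 46.79 and 41.91. These 4 are dim, and each lost its call when 1 array was left out, *CG4563* without any 1 of the 8 arrays (1.85 to 2.21), *CG32827* without any 1 array except C2 female 1 or C2 female 2 (2.77 to 4.61), *CG32379* without any 1 array except C2 male 1 (1.57 to 1.98) and *CG31955* without any 1 array except C2 male 2 (1.52 to 1.93), where the values in parentheses are the lowest and highest difference over all 8 omissions.

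In the other direction, immune transcripts led the list. *edin* (elevated during infection) had a Signal of 15.6 and 5.29 in C1 males and 5.10 and 5.76 in C1 females, but 265 and 622 in C2 males and 219.6 and 801 in C2 females. All C2 pools were above all C1 pools, although the pools of C2 differed from each other over 2-fold within each sex. The difference was -5.88 ± 0.79 (limma adjusted p = 0.00014) and -3.02 after adding 50. *DptB*, which encodes the antibacterial peptide Diptericin B, was at 652 and 180 in C1 males, 231 and 240.4 in C1 females, 1947 and 4004 in C2 males and 3373 and 6013 in C2 females (12.5-fold, limma adjusted p = 0.000942). *AttA*, for the antibacterial peptide Attacin-A, gave 179.9 and 96.6, 66.9 and 70.7, 364 and 956 and 1328 and 1280 in the same order (9.21-fold, limma adjusted p = 0.000649). Male pools of 1 line lay further apart than female pools for both peptides, and the calls were lost without any 1 of the 8 arrays (-4.11 to -3.18) for *DptB*, without any 1 of the 8 arrays (-3.55 to -2.85) for *AttA* and without C1 male 2, C1 female 1, C2 male 2 or C2 female 2 (-6.34 to -5.41) for *edin*. For *AttA*, line means of 982 in C2 and 103.5 in C1 compared with 1342 in R1, 96.22 in S1, 37.9 in R2 and 5.59 in S2, so the control lines lay inside the range of the selected lines.

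Of 22 tested genes for antimicrobial and immune-induced peptides, 3 were called (13.6%), where 1.94% of all genes were, and the median difference of the list was 0.09 against 0.00 over all genes. *DptB* and *AttA* were higher in C2 and *IM10*, for an immune-induced peptide, was higher in C1. *IM10* had a Signal of 477 and 658 in C1 males, 412 and 499 in C1 females, 104 and 124 in C2 males and 104 and 67.7 in C2 females, so its pools separated by line in the direction opposite to *DptB* (5.17-fold, limma adjusted p = 0.000173). Its call was lost without C1 male 2, C1 female 2, C2 male 1 or C2 female 2 (2.22 to 2.52). *Mtk*, for the antimicrobial peptide Metchnikowin and named here after its values were seen, had a difference of -1.91 (limma adjusted p = 0.0158), with overlapping male pools at 1648 and 516 in C1 and 1456 and 4746 in C2. Of 13 tested peptidoglycan recognition and lysozyme genes 0 were called, with 2 at an adjusted p below 0.05.

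Other transcripts higher in C2 were brighter or held their calls without any single array. *CG7194* stood at 316 and 119.8 in C1 males, 232 and 280.5 in C1 females, 1571 and 1843 in C2 males and 1408 and 1507 in C2 females, without overlap (7.07-fold, limma adjusted p = 9e-07). *CG13947*, bright in both sexes, went from 2475 and 3397 in C1 males to 9817 and 12370 in C2 males and from 570.3 and 934 in C1 females to 7331 and 5050 in C2 females (limma adjusted p = 1.2e-06). *Prx6c*, a peroxiredoxin of the enzyme family that reduces peroxides, was at 888 and 876 in C1 males and 3451 and 4105 in C2 males, and at 119 and 193 in C1 females and 855 and 941 in C2 females. The line difference of *Prx6c*, 5.03-fold, was similar in both sexes, -2.09 in males and -2.57 in females (limma adjusted p = 1.77e-05). No other of the 12 tested antioxidant genes was called (8.33% of the list, where 1.94% of all genes were). *mat* gave 89.42 to 188.1 in the C1 pools and 511.9 to 840 in the C2 pools (limma adjusted p = 1.22e-06). *CG32483* gave 169.3 to 285.3 and 845.2 to 1391 (limma adjusted p = 6.38e-08).

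Dimmer transcripts higher in C2 included a pair of receptors. *TkR99D*, a receptor for tachykinin neuropeptides, was at 68.2 and 80.1 in C1 males, 41.2 and 20.1 in C1 females, 143 and 155 in C2 males and 127 and 169 in C2 females. C2, with a line mean of 148.5, stood above the other 5 lines, which lay between 35.74 and 55.1, but the call (limma adjusted p = 0.000693) was lost without any 1 array except C1 female 1 (-1.94 to -1.42). *Ir76a*, an ionotropic chemoreceptor, gave 21.22 to 62.7 in C1 pools and 107.7 to 157.3 in C2 pools (limma adjusted p = 0.000224). Its call was lost without any 1 array except C1 male 2 or C1 female 2 (-1.92 to -1.57). *CG4962* and *CG10725* had line means of 49.06 and 49.5 in C1 and 157.5 and 253.5 in C2, with no overlap, and the call of *CG10725* was lost without any 1 array except C1 male 2 (-2.77 to -2.17).

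**Figure D1:**
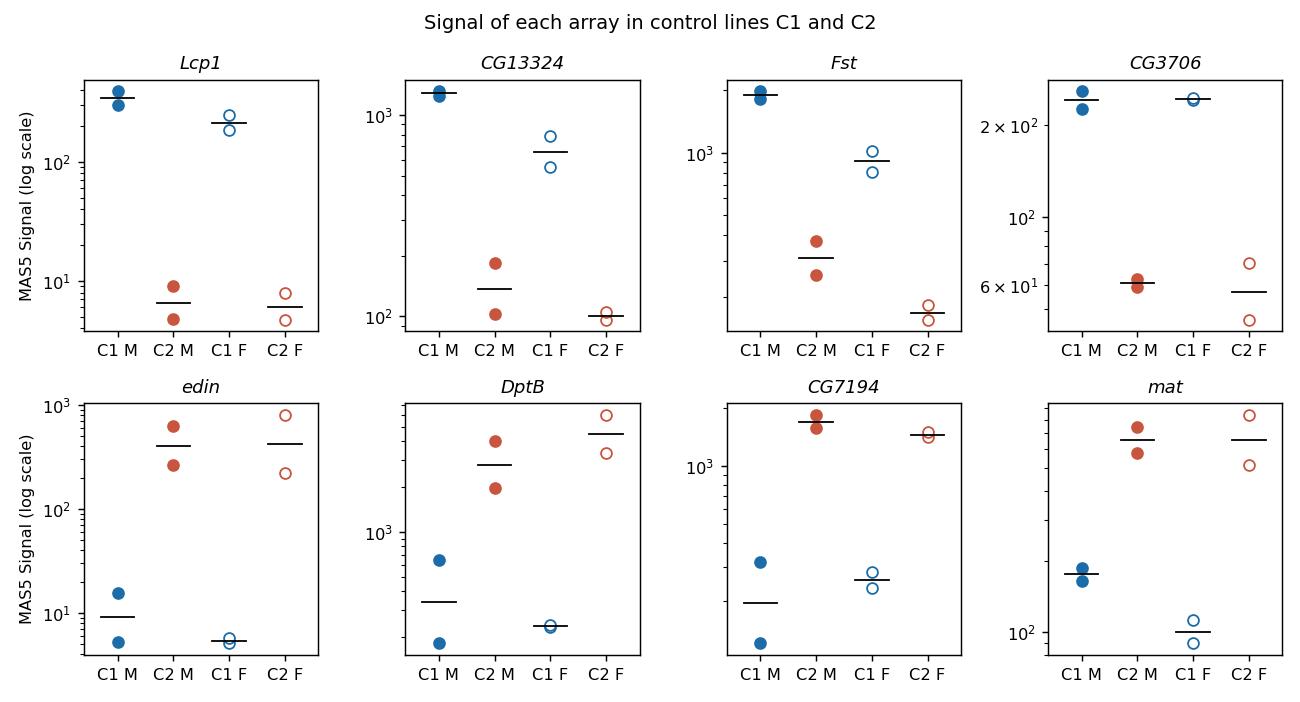
MAS5 Signal of each control array, on log axes whose range differs by gene, for 4 transcripts higher in C1 (upper row) and 4 higher in C2 (lower row). Points are single pools of 15 flies, filled for males (M) and open for females (F), blue for C1 and red for C2, and bars are geometric means of 2 pools. In every panel the C1 and C2 points of a sex do not overlap, and the pools of C2 lie over 2-fold apart for *edin* in each sex.

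Sex was a factor of the fit, and the line difference was taken in each sex. In males 42 probe sets were called (0.355%), 24 higher in C1 and 18 in C2, and in females 113 (0.955%), 50 higher in C1 and 63 in C2. The sexes shared 21 called probe sets, which is 50% of the male calls and 18.6% of the female calls, and all 21 had the same direction. Of the 229 called with the sexes averaged, 224 had the same sign in males and females, which a call on the average favours. Across all tested probe sets the male and female differences had the same sign in 60.1%, with a Pearson correlation of 0.33 and a Spearman correlation of 0.30 over probe sets, which are not independent. The 2 sexes share no arrays and no RNA, and each array was scaled separately to a common target. The male count fell to 17, 19, 18 and 15 without C1 male 1, C1 male 2, C2 male 1 and C2 male 2, and the female count to 31, 30, 30 and 74 without C1 female 1, C1 female 2, C2 female 1 and C2 female 2. The difference between the sexes, the line by sex term, was called at 4 probe sets (0.0338%), and 34 passed an adjusted p of 0.05, 17 with each sign. It was called at 2 probe sets without C1 male 2, C1 female 1, C2 male 1 or C2 female 2, and at 0 with only the 8 control arrays in the limma fit (1284 at an unadjusted p below 0.05).

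The 4 line by sex genes fell into a pair in which the female pools of C1 and C2 differed and a pair in which the male pools did. *CG12983* had a Signal of 112 and 111 in C1 females and 0.931 and 1.33 in C2 females, while males were at 892 and 1147 in C1 and 777 and 780.2 in C2. The female difference was 6.60 and the male difference 0.38, so that the line by sex term was -6.22 (limma adjusted p = 1.44e-06). C2 females lay at or near the floor of 1, so the size of these differences depends on it. After adding 50 to Signal the female difference was 1.66, the male difference 0.36 and the term -1.30, which was no longer called (limma adjusted p = 0.00849), and with a floor of 16 the term was -2.43 and called. C1 females shared this level with S1 females, whose mean was 148.6, while females of the other 4 lines had means of 1.13 to 2.69. A second probe set of *CG12983* gave a line difference of 2.96 with the sexes averaged, beside 3.49 for the first. The line by sex term of this second probe set was -4.93 and was not called (limma adjusted p = 0.0336). *Tssk*, a testis-specific serine/threonine kinase, was at 32.0 and 41.8 in C1 females and 1.83 and 1.60 in C2 females, and at 1605 and 2168 and 1950 and 2103 in the males, which overlapped (term -4.54, limma adjusted p = 0.000569). C2 females were again near the floor, and the term of *Tssk* was -0.86 after adding 50 (limma adjusted p = 0.0569) and -1.31 with a floor of 16 (limma adjusted p = 0.0265), called in neither. Its call was also lost without any 1 of the 8 arrays (-4.75 to -4.32). With the sexes averaged the log2 difference was 2.15, and this call ended after adding 50 (0.32) and with a floor of 16 (0.54), while on linear Signal, where the males carry most weight, the difference was -52.32. Female means of *Tssk* were 80.93 in R2, 36.88 in C1 and 1.71 to 3.999 in the other 4 lines.

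These transcripts are abundant in males, and the 101 male transcripts described above had medians of 2.88 and 3.84 and maxima of 17.7 and 19.5 in C1 females, with medians of 3.12 and 3.08 and maxima of 39.7 and 30.2 in C2 females. The maxima of that male set were lower in C1 females, where *CG12983* and *Tssk* were higher, but its rule leaves out transcripts reaching 10 in selected females. Some other male-abundant transcripts were also higher in C1 than in C2 females. These included *atlas* (54.9 and 39.4 against 2.40 and 1.70), *Mst57Da* (24.6 and 39.8 against 3.92 and 6.40) and *Ebp* (16.2 and 22.1 against 3.09 and 2.82). *Acp76A* was lower (3.12 and 1.84 against 19.9 and 13.7). *ND-20L*, a relative of a complex I subunit gene, had a pattern like that of *Tssk*, with 39.6 and 49.1 in C1 females, 3.10 and 3.70 in C2 females and overlapping males at 406 and 662 and 587 and 581. It was the only called gene of 80 in oxidative phosphorylation (1.25%, where 1.94% of all genes were). That list had 62 differences above 0 and a median of 0.09. Its line difference was called (1.76, limma adjusted p = 0.000303) and its line by sex term was not (limma adjusted p = 0.0028). The line call of *ND-20L* was lost without any 1 array except C1 male 1 or C2 female 2 (1.59 to 1.94), after adding 50 (0.33), with a floor of 16 (0.65), with quantile normalization within sex (1.75) and with only the 8 control arrays, and on linear Signal its line difference was -4.61.

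*HSPBAP1* had the reverse pattern and differed between the males. Its Signal was 73.3 and 64.3 in C1 males and 1043 and 1786 in C2 males, with females at 146 and 154 in C1 and 124 and 132 in C2. The C2 males stood apart from the males of every other line, with a mean of 1415 against 68.81 to 103, and the line by sex term was -4.54 (limma adjusted p = 1.85e-05). *CG3408* was at 169 and 150.5 in C1 males and 815 and 744 in C2 males, and its 4 female pools lay between 815.8 and 967.7. Here C1 males had the lowest mean of the 6 lines, 159.9 against 364.8 to 779.1 (term -2.34, limma adjusted p = 7.54e-05). The term of *CG3408* lost its call without C1 male 2, C1 female 1, C2 male 1 or C2 female 2. In the methods' analysis of variance on linear Signal 0 of the 4 terms were called (Benjamini-Hochberg adjusted p = 0.0156 to 0.807), and that of *CG12983* was above 0.

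**Figure D2:**
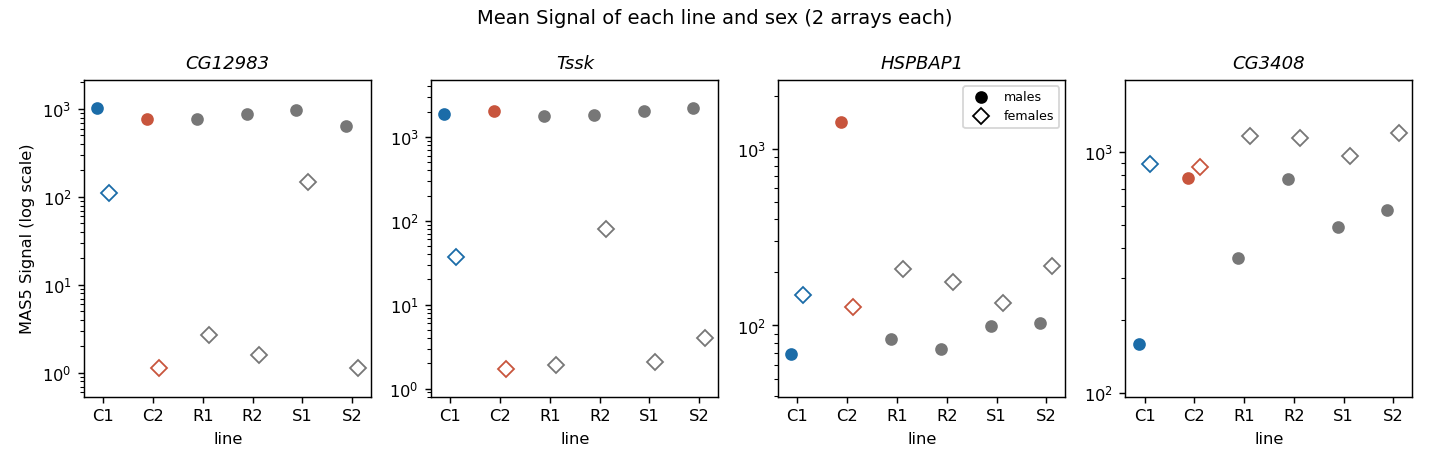
Mean Signal of 2 pools for each line and sex (log axes), with filled circles for males and open diamonds for females, blue for C1, red for C2 and grey for the selected lines, for the 4 genes whose line difference was called as different between the sexes. *CG12983* was at 111.8 in C1 females and 1.13 in C2 females, and *HSPBAP1* at 1415 in C2 males and 68.81 in C1 males.

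**Figure D3:**
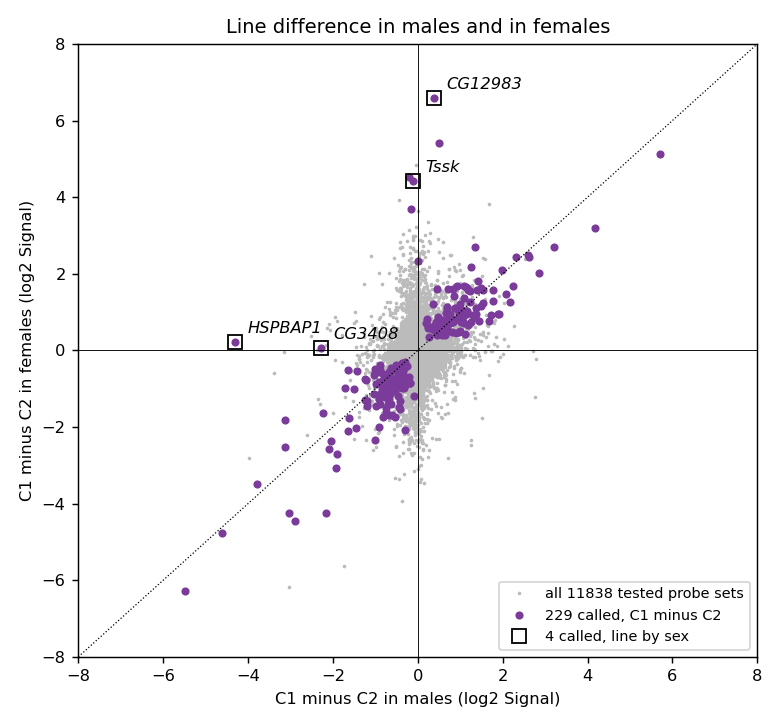
C1 minus C2 in log2 Signal in males (horizontal) and females (vertical) for all tested probe sets in grey, with the 229 called in purple and the 4 line by sex calls boxed and named. The dotted line marks equal differences, and 224 of the 229 called points have the same sign in both sexes.

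Lists of genes by function and by tissue showed where the called genes lay. Of 72 tested cytochrome P450 genes, which oxidize fatty acids, hormones and foreign compounds, 4 were higher in C1 and 4 in C2 (11.1%, where 1.94% of all genes were called), and the median difference of the list was -0.01. The 4 higher in C1 were *Cyp4ac2*, *Cyp4d8*, *Cyp12a5* and *Cyp4p1*. *Cyp4d8* had a Signal of 363 and 354 in C1 males, 198 and 193 in C1 females, 144 and 112 in C2 males and 84.5 and 91.0 in C2 females (2.51-fold, limma adjusted p = 5.48e-05). *Cyp12a5* gave 908 and 802, 629 and 628, 497 and 454 and 201 and 277 in the same order (limma adjusted p = 1.81e-05). Both separated by line within each sex. *Cyp4ac2* was 2.62-fold higher in C1 (limma adjusted p = 0.000356), a call lost without any 1 array except C1 male 2 (1.20 to 1.58). The 4 higher in C2 were *Cyp4e3*, *Cyp6a20*, *Cyp6a18* and *Cyp6a13*, and *Cyp4e3* was at 108 and 94.6 in C1 males, 144 and 108 in C1 females, 274 and 295 in C2 males and 278 and 229 in C2 females (limma adjusted p = 0.000216). The call of *Cyp4e3* was lost without any 1 array except C1 male 1, C1 female 1 or C2 female 2 (-1.36 to -1.15). *Cyp4p1*, *Cyp6a20*, *Cyp6a18* and *Cyp6a13* had smaller differences of 0.91, -0.80, -0.69 and -0.61, with pools separated by line within each sex.

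Glutathione S-transferases conjugate glutathione to reactive compounds. Of 32 tested, 4 were higher in C1 and 0 in C2 (12.5%, where 1.94% of all genes were called), with a median difference of 0.08. *GstE6* was at 6590 and 6673 in C1 males, 7525 and 7318 in C1 females, 3321 and 3008 in C2 males and 3780 and 4209 in C2 females. Its C1 pools were all above its C2 pools with little spread, 1.98-fold (0.98 ± 0.06, limma adjusted p = 8.72e-08). Its neighbour *GstE5*, whose start lies 1.4 kb away, gave 2180 and 2211 in C1 males, 1245 and 1311 in C1 females, 1047 and 962 in C2 males and 607 and 711 in C2 females (2.06-fold, limma adjusted p = 6.4e-06), and the similarity of the epsilon class sequences could let their probes share signal. *GstE3*, of the same class, was 1.76-fold higher in C1 (limma adjusted p = 6e-04), a call lost without any 1 array except C2 female 2 (0.72 to 0.92). *GstZ1*, of the zeta class that acts in tyrosine breakdown, was at 302 and 232 in C1 males, 495 and 539 in C1 females, 75.5 and 79.0 in C2 males and 257 and 172 in C2 females (2.9-fold, limma adjusted p = 1e-05). Of 25 tested UDP-glycosyltransferases 20 had a difference above 0, with a median of 0.15, and only *Ugt49C1* was called (4% of the list). It was 1.89-fold higher in C1 (limma adjusted p = 0.000559), a call lost without any 1 array except C1 male 2 (0.80 to 1.04).

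Genes that handle alcohol and its products were given in full because the lines were bred in an alcohol experiment. Alcohol dehydrogenase itself is measured by probe sets paired with more than 1 gene and is not named here. Of 9 tested genes 2 were called (22.2%, where 1.94% of all genes were). *Men-b*, a mitochondrial malic enzyme, was higher in C1, with 2728 and 2807 in C1 males, 2086 and 2050 in C1 females, 1882 and 1658 in C2 males and 1573 and 1581 in C2 females (1.43-fold, limma adjusted p = 1.66e-05). *Men*, the cytosolic NADP-dependent malic enzyme, was higher in C2, with 6061 and 5151, 3430 and 3254, 7303 and 7835 and 4702 and 4617 in the same order (1.37-fold, limma adjusted p = 0.000642). The 2 malic enzymes thus separated by line in opposite directions without overlap within a sex, and the call of *Men* was lost without any 1 array except C1 male 1 (-0.52 to -0.40).

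The other 7 missed the threshold. *AcCoAS*, which makes acetyl-CoA from acetate, came nearest, at 7948 and 6912 in C1 males, 5702 and 5707 in C1 females, 9946 and 9978 in C2 males and 7301 and 7060 in C2 females (-0.38 ± 0.07, limma adjusted p = 0.00178). *Zw*, glucose-6-phosphate dehydrogenase, had -0.37 ± 0.07 (limma adjusted p = 0.00439) and *Aldh*, the mitochondrial aldehyde dehydrogenase, -0.29 ± 0.09 (limma adjusted p = 0.0506). *Gpdh1*, glycerol-3-phosphate dehydrogenase, had -0.01 ± 0.17, *Aldh-III* -0.08 ± 0.09, *Idh*, isocitrate dehydrogenase, 0.05 ± 0.08 and *Fdh*, formaldehyde dehydrogenase, -0.26 ± 0.12, with limma adjusted p from 0.199 to 0.986.

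Of 20 tested photoreceptor markers, 3 were higher in C2 and 0 in C1 (15%, where 1.94% of all genes were called). In this list 18 of the 20 had a difference below 0, with a median of -0.30. *trpl*, a light-gated cation channel, was at 1843 and 2243 in C1 males, 1213 and 1355 in C1 females, 2809 and 3220 in C2 males and 2836 and 2113 in C2 females (1.68-fold, limma adjusted p = 3.65e-05). *inaC*, the eye protein kinase C, was at 951 and 1143, 560.3 and 537, 1375 and 1451 and 1059 and 878 in the same order (1.54-fold, limma adjusted p = 4.76e-05). *Galphaq*, the G protein coupled to rhodopsin, was 1.37-fold higher in C2 (limma adjusted p = 0.000687), a call lost without any 1 array except C2 female 2 (-0.53 to -0.37). Taken by sex, the list had a median difference of -0.20 for males and -0.49 for females. The summed Signal of the 20 genes was 49662 and 57842 in C1 males, 55980 and 62792 in C2 males, 35704 and 39984 in C1 females and 52337 and 47126 in C2 females. The female sums did not overlap and the male sums did. Whether the share of head or eye RNA in the pools had a part in the differences of this paragraph and the next was not tested.

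*Ac76E* and *Ac13E*, adenylyl cyclases that make cAMP, were the 2 called of 21 genes of cAMP signalling and memory, both higher in C2. That was 9.52% of the list, where 1.94% of all genes were called. *Ac76E* had a Signal of 410.1 and 449 in C1 males, 191 and 161 in C1 females, 589 and 551 in C2 males and 557 and 458 in C2 females (limma adjusted p = 1.12e-05), so the gap between lines was wider in females (-1.52) than in males (-0.41), with limma adjusted p = 0.0222 for the line by sex term. *Ac13E* was 1.79-fold higher in C2 (limma adjusted p = 4e-04), a call lost without any 1 array except C1 male 2 or C2 female 2 (-0.93 to -0.74). *Clk*, a transcription factor at the core of the circadian clock, was the only called gene of 12 clock genes, at 372 and 384 in C1 males, 92.6 and 103 in C1 females, 698 and 732 in C2 males and 434 and 350 in C2 females. The share called of these 12 genes was 8.33%, and 10 had a difference below 0, with a median of -0.28. For *Clk* all C2 pools were above those of C1 within each sex (2.75-fold, limma adjusted p = 1.41e-05). Of 32 tested odorant-binding proteins, *Obp49a* was higher in C1, with 1860 and 1459 in C1 males, 746 and 672 in C1 females, 433 and 453 in C2 males and 387 and 348 in C2 females (limma adjusted p = 6.38e-08). *Obp56d* was higher in C2, with 6951 and 6460, 2938 and 2663, 9992 and 10890 and 7761 and 7048 in the same order (limma adjusted p = 9e-07), and the median difference of the list was -0.04. *Obp49a* and *Obp56d* were the 2 called, 6.25% of the list.

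Other lists, mostly metabolic, held 1 or 2 calls each. Of 12 digestive carbohydrase genes 8.33% were called and of 27 lipid genes 7.41%. Of 8 fat body genes *Apoltp* alone was called (12.5%), and of 42 cuticle and pigment genes 4.76%, where 1.94% of all genes were. *Mal-B1*, a maltase that splits sugars, was 1.99-fold higher in C2 (limma adjusted p = 0.000377), while 9 of the 12 digestive carbohydrase genes had a difference above 0. This call was lost without any 1 array except C1 male 1 (-1.11 to -0.87). In lipid metabolism *whd*, carnitine palmitoyltransferase, which brings fatty acids into mitochondria, was higher in C2, at 1641 and 1530 in C1 males, 2212 and 2024 in C1 females, 2969 and 2642 in C2 males and 3164 and 3341 in C2 females (limma adjusted p = 1.46e-05). *Acox57D-p*, a peroxisomal acyl-CoA oxidase, was 1.55-fold higher in C1 (limma adjusted p = 7.59e-05). *Apoltp*, a lipid transfer lipoprotein, was 1.89-fold higher in C2 (limma adjusted p = 0.000316), a call lost without any 1 array except C1 male 1 or C2 female 2 (-1.06 to -0.78). Of 71 mitochondrial ribosome genes 2 were called (2.82%), a share near the 1.94% of all genes. These were *mRpS28* (1.62-fold) and *mRpL12* (1.4-fold), both higher in C1 (limma adjusted p = 0.000141 and 0.000125). The call of *mRpS28* was lost without C1 male 1, C1 female 2, C2 male 2 or C2 female 1 (0.64 to 0.75). That of *mRpL12* was lost without C1 female 2, C2 male 2 or C2 female 1 (0.45 to 0.51). *yellow-d*, of the yellow protein family and with *Lcp1* 1 of the 2 called among 42 cuticle and pigment genes, was 1.57-fold higher in C2 (limma adjusted p = 0.000357), a call lost without any 1 of the 8 arrays (-0.68 to -0.63).

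No gene was called among 42 cytoplasmic ribosomal protein genes, 40 proteasome genes, 28 genes of glycolysis and gluconeogenesis, 17 heat-shock genes, 22 genes of transposon silencing, 20 biogenic amine genes, 49 genes of the testis and accessory gland, 15 of the eggshell and yolk or 10 of juvenile hormone metabolism. Of all genes 1.94% were called, and at that share lists of these sizes would hold few calls or none. At an adjusted p below 0.05 these lists held from 0 genes (biogenic amines) to 3 (glycolysis and gluconeogenesis). The yolk and eggshell Signal summed to 97338 to 101478 in the 4 female pools.

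**Figure D4:**
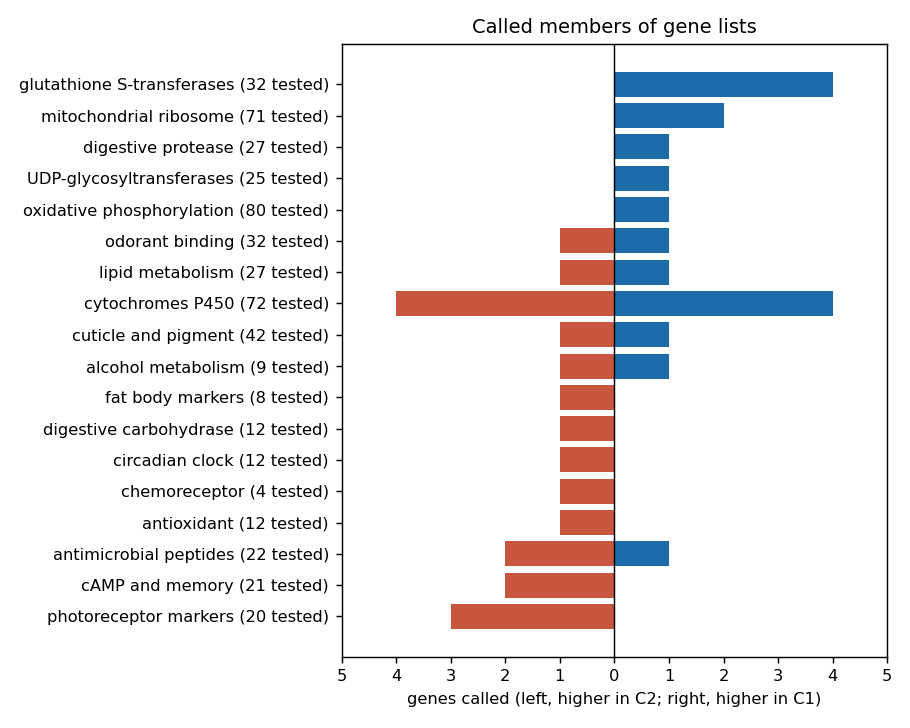
Number of genes called in C1 minus C2 (horizontal) for each gene list with a call, blue to the right for genes higher in C1 and red to the left for genes higher in C2, with the number of genes tested in each list. Glutathione S-transferases had 4 of 32 called, all higher in C1, photoreceptor markers 3 of 20, all higher in C2, and cytochromes P450 4 in each direction. Among all tested genes 1.94% were called.

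By chromosome arm, the share of genes called was 0.939% on the X (15 of 1597), 2.23% on 2L, 2.49% on 2R, 2.20% on 3L and 1.52% on 3R, with 3 of 62 genes called on chromosome 4. Adjacent tested genes were both called in 7 of 9936 neighbouring pairs. The direction was the same in 4, *GstE5* with *GstE6*, *CG31810* with *CG31809*, *hiro* with *CG32483* and *CG8910* with *inaC*. It was opposite for *CG8654* with *CG16898*, *ps* with *GstZ1* and *CG6051* with *Men-b*. Among the neighbours of called genes 3.68% were called, against 1.91% of all genes in this count. Over all neighbouring pairs 50.7% had the same sign. Of 552 genes with several tested probe sets, 12 were called by the brightest, and 18 of their 24 other probe sets (75%) had the same sign, against 60.8% over all such genes. *Rnf11* gave 1.57 and 1.67 by its 2 probe sets, whereas *Cbp80* gave 0.97 and -0.23.

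The selected lines give the scale of line differences in the same experiment, each pair holding line 1 and line 2 of one selection regime. R1 and R2 differed at 233 probe sets (1.97%) and S1 and S2 at 815 (6.88%), called by the same fit, beside 229 (1.93%) for the control lines. The median absolute difference was 0.17 for the control pair, 0.17 for the resistant pair and 0.25 for the sensitive pair. By the unlike measure of 1 array against 1 array, the S1 female pools differed by 0.38, the most of any line and sex. Of the control calls, 39 were also called between R1 and R2 (17% of the control calls and 16.7% of the resistant ones), 22 with the same sign, and 77 between S1 and S2 (33.6% and 9.45%), 47 with the same sign. Called in neither selected pair were 130. The control pair was also compared with the mean of the selected pairs. That contrast contains C1 minus C2, so the 2 share calls by construction. It was called at 251 probe sets (2.12%), of which 124 were among the 229. This count fell to 145, 158, 167, 164 and 165 without C1 female 1, C1 female 2, C2 male 1, C2 male 2 and C2 female 1. Over all tested probe sets the control difference had a Pearson correlation of -0.06 with the resistant pair and 0.06 with the sensitive pair, across probe sets that are not independent, and Spearman correlations of the opposite sign, 0.03 and -0.03.

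Some called genes differed the same way in all 3 pairs. *p24-1*, a protein of secretory vesicles, was at 812 and 703 in C1 males, 761 and 837 in C1 females, 386 and 338 in C2 males and 405 and 458 in C2 females, 0.98 higher in C1 on the log2 scale, and was 1.65 higher in R1 than in R2 and 1.29 higher in S1 than in S2 (limma adjusted p = 1.75e-05, 6.5e-08 and 2.55e-07). *CG31955* had differences of 1.73, 2.14 and 1.49 for the control, resistant and sensitive pairs, *Clk* -1.46, -0.96 and -1.31, and *Cyp4e3* -1.26, -1.33 and -1.10. Lines numbered 1 and 2 kept the same order for these genes, which are given here because they did so. Of the 17 probe sets called in all 3 pairs, 5 kept the same order, a number that was not tested against unrelated signs. *AttA* turned the other way, with -3.20 in the control pair against 5.23 and 4.07 in the selected pairs. So did *Mal-B1* (-0.99 against 1.66 and 1.06) and *Acox57D-p* (0.63 against -1.25 and -0.98).

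Set among the line means of all 6 lines, 53 of the 229 called probe sets (23.1%) had C1 and C2 at the 2 ends of the range, 45 had C1 alone outside the range of the other lines, 99 had C2 alone outside it and 32 had neither. Over all tested probe sets the shares were 4.41%, 20.2%, 28.8% and 46.6%. The 229 were called on C1 minus C2 itself, which places these lines towards the ends, so the contrast of shares follows in part from the call. Of genes already described, *TkR99D* had C2 alone outside, and *Lcp1* and *mat* had the control lines at both ends, with *mat* at 138.8 in C1, 669.5 in C2 and 190.7 to 325.9 in the selected lines.

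**Figure D5:**
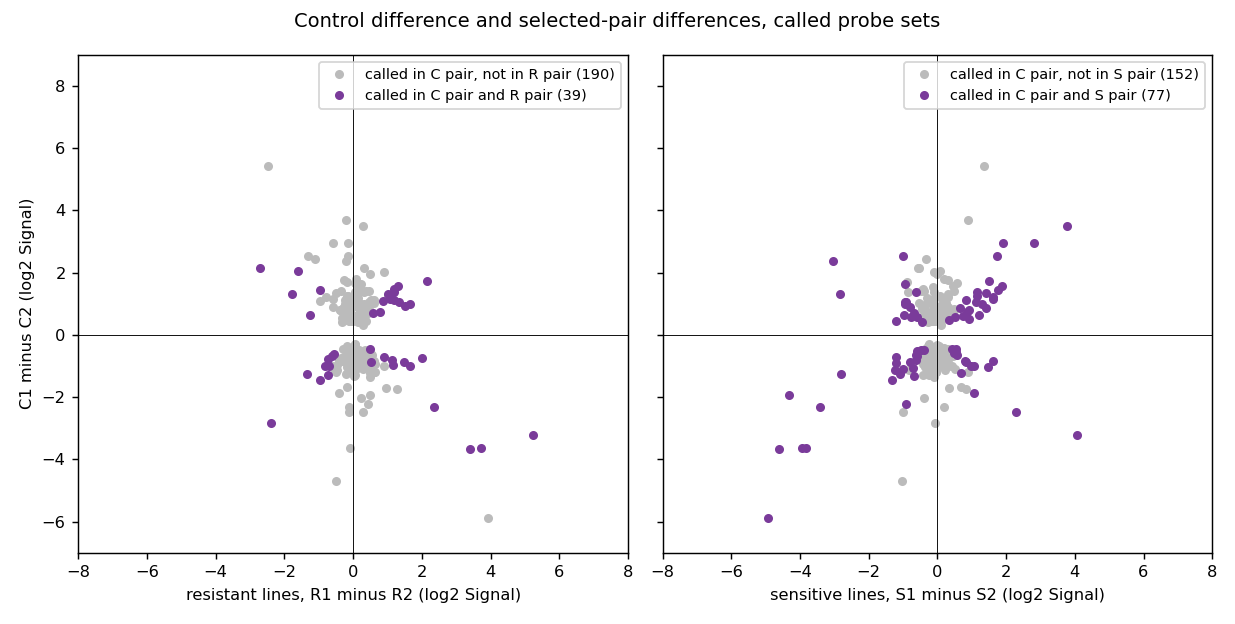
C1 minus C2 (vertical) against R1 minus R2 (left) and S1 minus S2 (right) in log2 Signal for the 229 probe sets called between the control lines, in purple where the selected pair was called too and in grey where it was not. Purple points, 39 for the resistant pair and 77 for the sensitive pair, lie in every combination of signs.

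Genes that the study connected with alcohol were counted among the control calls. These lists were chosen by the study in part on these same arrays, with line differences that include the control lines, so their shares are no independent evidence. Of 115 tested probe sets listed for differences over 2-fold between selection groups 18 were called between C1 and C2 (15.7%), of 307 listed as shared by 3 selection experiments 51 (16.6%) and of 195 shared with ethanol exposure 21 (10.8%), beside 1.93% of all tested. Of 43 tested probe sets of genes implicated in alcohol sensitivity by earlier work 0 were called by limma, with 9 at an adjusted p below 0.05. At the 1.93% of all tested, a list of this size would hold few calls or none. The looser threshold was passed by 9.87% of all tested. Of 35 candidates taken into *P*-element mutant tests 5 were called (14.3%), and these are named after their values were seen. *Got1*, a glutamate oxaloacetate transaminase, was higher in C1, with 5748 and 5549 in C1 males, 4150 and 3788 in C1 females, 3929 and 3593 in C2 males and 2633 and 2496 in C2 females (limma adjusted p = 1.84e-05). *CG9674*, *Men*, *l(3)L1231* and *CG30015* were higher in C2, with differences of -0.71, -0.46, -0.84 and -0.46, and all 5 separated by line within each sex.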

How the data were processed

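RNA from whole flies of the 6 lines was hybridised to Affymetrix Drosophila Genome 2.0 arrays, 24 in all, of which the 8 of C1 and C2 enter the comparison. The authors deposited a linear intensity for each probe set on each array, namely the Signal of Affymetrix MAS5, which the submitters' processing notes name, scaled on each array so that its mean without the top and bottom 2% was 500. The number of arrays limits the precision.

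Values under 1, which were 69 of 94704 tested values on control arrays, were set to 1 before log2 was taken. Of 18952 probe sets, 183 array controls were dropped. As many of the remaining 18769 were tested as the study's detection filter kept, taken in order of the Signal that at least 12 of 24 arrays reached, which was 50.44 for the last. Group means of line and sex were fitted on all 24 arrays with limma 3.58.1 in R 4.3.3 (trended empirical Bayes), so that every group shared 1 estimate of the spread between pools. Contrasts were C1 minus C2 with the sexes weighted equally, in each sex and between the sexes, and the control pair minus the mean of the selected pairs, with Benjamini-Hochberg adjusted p below 0.001 as the threshold. Nothing in the labels says how many independent rearings the pools represent. Slide and scan batches are not given in the sources used here. The scripts were tested on simulated data.

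A probe set was named by its gene where the platform annotation (13646 probe sets) or the study's lists (148) gave 1 gene, 416 probe sets with several genes and 4559 with none were not named, and 13771 were placed on a reference annotation for chromosome arm and gene start. For a gene with several probe sets the brightest was used. Named genes were the 12 largest differences in each direction without overlap within either sex, up to 6 line by sex calls, up to 4 called members of each gene list, all genes of alcohol metabolism, and up to 4 called genes whose selected pairs both differed the same way and 4 the other way. Members, lists and rules were chosen with earlier results of these data known. Alternatives changed the threshold, filter, floor, log offset, normalization, trend, arrays used and replicate block, and included the methods' analysis of variance on linear Signal and their 2 steps, a line or line by sex effect at an adjusted p below 0.001 and then the contrast at p below 0.05. Columns of the study's own comparisons in its supplementary tables were not used, and only the names in its lists were.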

Additional observations from a re-analysis of the deposited data

Results flagged for a closer look

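The line difference of 4 genes was called as different between the sexes by the limma line by sex term, given as C1 minus C2 in males minus the same in females. The term was -6.22 for *CG12983* and -4.54 for *Tssk*, where the females of C1 and C2 differed, and -4.54 for *HSPBAP1* and -2.34 for *CG3408*, where the males did. After adding 50 to Signal the terms were -1.30, -0.86, -3.74 and -2.03 in that order, and those of *CG12983* and *Tssk* were no longer called.

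The difference of the control pair from the mean of the selected pairs (line 1 minus line 2 in each pair, log2 Signal) was called for 30 of the named genes. On the positive side, where C1 minus C2 exceeded the selected mean, it was 5.97 for *Lcp1*, 3.99 for *IM10*, 3.8 for *Tssk*, 2.8 for *CG3706*, 2.31 for *Fst*, 2.24 for *Ser8*, 2.09 for *CG13324*, 1.75 for *Acox57D-p* and 1.72 for *CG31809*. Smaller positive values were 1.5 for *GstZ1*, 1.47 for *GstE5*, 0.99 for *GstE6*, 0.96 for *Obp49a*, 0.82 for *mRpS28* and 0.43 for *Men-b*. On the negative side it was -7.85 for *AttA*, -3.77 for *CG13947*, -2.78 for *Ir76a*, -2.35 for *Mal-B1*, -2.33 for *CG4962*, -2.33 for *mat*, -1.97 for *CG32483*, -1.96 for *HSPBAP1*, -1.31 for *Ac76E* and -1.08 for *Ac13E*. Smaller negative values were -0.98 for *Obp56d*, -0.81 for *inaC*, -0.75 for *yellow-d*, -0.7 for *whd* and -0.65 for *Galphaq*. Groups held 2 arrays each, so no array could be judged against the rest of its group.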

How the results depend on the processing

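With an adjusted p below 0.05 the counts were 1169 for C1 minus C2, 335 in males, 933 in females, 34 for line by sex and 1492 for the control pair against the selected pairs, and with the methods' 2 steps 855, 622, 775, 322 and 976. With only the 8 control arrays in the limma fit they were 40, 3, 10 and 0 (1284 line by sex at an unadjusted p below 0.05), and the contrast with the selected pairs has no value there or without S1. Adding 50 to Signal gave 68 in males and 4 for line by sex, of which *HSPBAP1* and *CG3408* were among the 4 called before. The methods' analysis of variance on linear Signal gave 83 in males, 56 in females (19 higher in C1 and 37 in C2) and 2 for line by sex, with 0 of the 4 line by sex genes among them, and turned *Tssk* to -52.32 and *ND-20L* to -4.612 in Signal units. Leaving out 1 control array gave 115 to 168 for C1 minus C2, 15 to 34 in males, 30 to 108 in females, 2 to 5 for line by sex and 145 to 214 against the selected pairs, with a lone array assumed to vary like the other groups. The remaining alternatives moved the C1 minus C2 count to between 167 (no intensity trend) and 312 (without S1). With the replicate number within sex as a block the counts were 209, 33, 91, 4 and 241. Same-numbered pools of C1 and C2 did not deviate together (r of 0.046 in males and 0.014 in females). This could not show a batch shared by all pools of a line. Of 55 called named genes, 13 kept their call in each of 12 alternatives and 31 without each of the 8 arrays, and 38 lost it in the fit of the 8 control arrays alone. The causes of these changes were not tested beyond the smaller number of arrays where arrays were left out. Quantile normalization within sex shifted the median difference by -0.0013.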
